A study of Apis mellifera with 6 samples.

Results

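The 150 genes described here are those that took most reads in the midgut of control honey bees (Apis mellifera), among the 9710 genes whose identifier is LOC and a number, out of 10013 genes in the deposited tables. They were chosen from the measured values. First, 475 of the 9710 were set aside because their group means differed by at least 0.75 on the log2 scale and their 3 tunicamycin values did not overlap their 3 control values. The 150 with the highest control mean were then taken from the 9235 left. Their level in controls, and the fact that few of them differ strongly between the groups, therefore follow from the choice, and are given below as a description.

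The 6 samples were midguts of bees fed sucrose solution for 24 hours. The 3 controls (numbered 1, 2 and 3) received 0.5% DMSO, the solvent, alone, and the 3 treated samples (numbered 2, 3 and 4) received 24 µM tunicamycin in 0.5% DMSO, so DMSO was common to all. Age, caste, colony and the number of midguts in a sample are not stated by the labels. Nothing in the labels says that the samples came from separate cages, so the spread between them may be technical.

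The midgut is the part of the insect gut that digests food and takes up nutrients. Its lining is mostly enterocytes, which secrete hydrolytic enzymes into the lumen, and the food is kept apart from these cells by the peritrophic matrix, a sheet of chitin and glycoproteins. Secreted enzymes and matrix proteins are made at the endoplasmic reticulum (ER), where many of them receive N-linked sugar chains. Tunicamycin blocks the first step of that sugar addition and so causes unfolded proteins to build up in the ER.

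Whole reads could be recovered from the deposited normalized values, and came to between 22763496 and 26278751 per sample. At least 3928 reads stood behind each value of the 150 genes, so that counting error was at most 1.60%. In every one of the 150 the spread over the 3 controls, a coefficient of variation with a median of 15.0%, was larger than counting error. Control 1 stands apart from the other controls in these data, and values that rest on it are given with and without it. By the markers listed for the tissue check, the carbohydrases put on the midgut list, Hbg2, Hbg3 and AGLU2, summed to between 701920 and 1592447 normalized reads a sample. Hbg3 gave only between 599 and 1736 of these, so the sum is that of Hbg2 and AGLU2 and shows nothing about Hbg3. The 4 fat body genes measured summed to between 304 and 545, the 5 muscle genes to between 4590 and 7772, the hemocyte gene PPO to between 42.5 and 71.9, the 2 hypopharyngeal gland genes to between 744 and 1544 and the 3 enteroendocrine and neuronal genes to between 619 and 1118. Control and tunicamycin ranges overlapped in every list but that of the fat body, at 441 to 545 in controls and 304 to 424 in tunicamycin. Of its genes only Hex70a had groups apart, at 297, 194 and 184 in controls and 107, 147 and 126 in tunicamycin. The groups of Vg, Hex70c and Hex110 overlapped. In the midgut list Hbg3 also had groups apart, at 1168, 1609 and 1736 in controls and 950.5, 989 and 599 in tunicamycin. The groups of Hbg2 and AGLU2 overlapped. No gene of these lists was at 0 in any sample. The part of other tissues in the values below was not tested. In whole midguts, fewer cells of a type and less RNA per cell cannot be told apart.

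Between 41.6% and 48.2% of all reads fell on these 150 genes. Controls 1, 2 and 3 gave them 47.0%, 46.6% and 45.5%, while tunicamycin 2, 3 and 4 gave 44.3%, 48.2% and 41.6%, or 46.4% ± 0.774 against 44.7% ± 3.33 (mean ± SD, n = 3 each). The groups overlap, with the highest and the lowest share both in a tunicamycin sample. A share of reads needs no scaling between samples, but it counts reads and not molecules: a long transcript gives more reads than a short one, and transcript lengths were not used here. Ranks below are ranks by reads.

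The load was concentrated in a few genes. The highest alone took 9.44%, 10.1% and 8.89% of control reads in turn, and with tunicamycin 9.25%, 13.1% and 10.7%. Ranks 2 to 10 took 20.4%, 16.8% and 18.0% of control reads and, with tunicamycin, 18.3%, 16.1% and 14.1%. The next 40 took between 8.28% and 11.2% of reads in every sample, and the 100 at ranks 51 to 150 between 7.79% and 8.53%. Counted from the top rank, 6 to 8 genes made up the first 50% of the reads of all 150 in every sample. Without the highest gene in numerator or denominator the remaining 149 took 40.7% ± 0.673 in controls and 37.9% ± 2.97 in tunicamycin, at 38.6%, 40.4% and 34.6% for treated samples 2, 3 and 4. Tunicamycin samples 2 and 4 lay below the lowest control (40.2%), as they also did with the highest gene counted, while tunicamycin 3 lay within the control range.

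**Figure D1:**
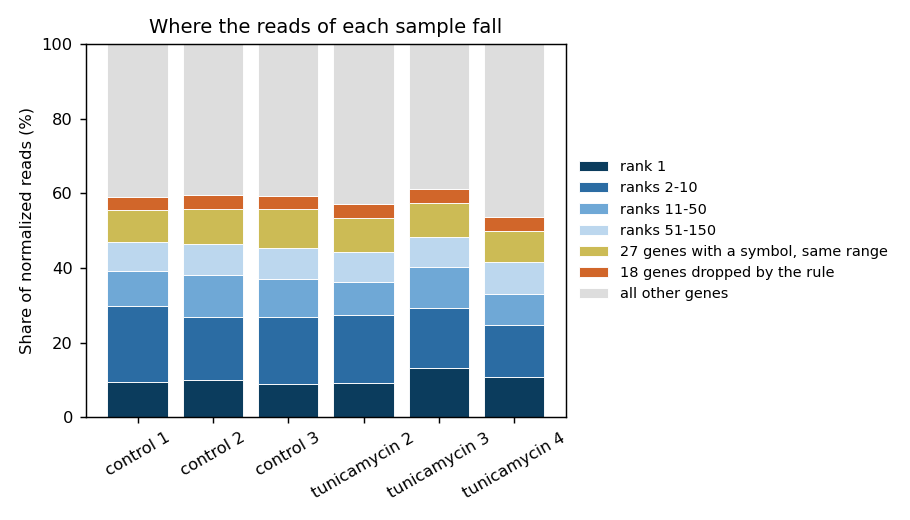
Share of normalized reads (%, y axis) in each of the 6 samples (x axis), stacked by rank group of the 150 genes and by the other genes of the same abundance. The 150 genes (blues) make up between 41.6% and 48.2% of every bar, with the tallest and the shortest blue stack both in tunicamycin samples.

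The same genes led the 150 in each sample. Among the 150, LOC724199 was first in all 6 samples. LOC100579019, LOC724874 and LOC725725 filled places 2 to 4 of the 150 in every sample, in an order that differed between samples. Genes with a symbol were left out of these places. With them counted the places differ, since in control 3 Hbg2 was above LOC100579019 and LOC724874. Of the 20 highest by control mean, between 17 and 19 were among the 20 highest of the 150 in any one sample. Of all 150, between 126 and 134 were among the 150 highest LOC genes of a control and between 115 and 120 among those of a tunicamycin sample, and 87 were in that top 150 in all 6. Ranking on controls favours the control counts here.

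**Figure D2:**
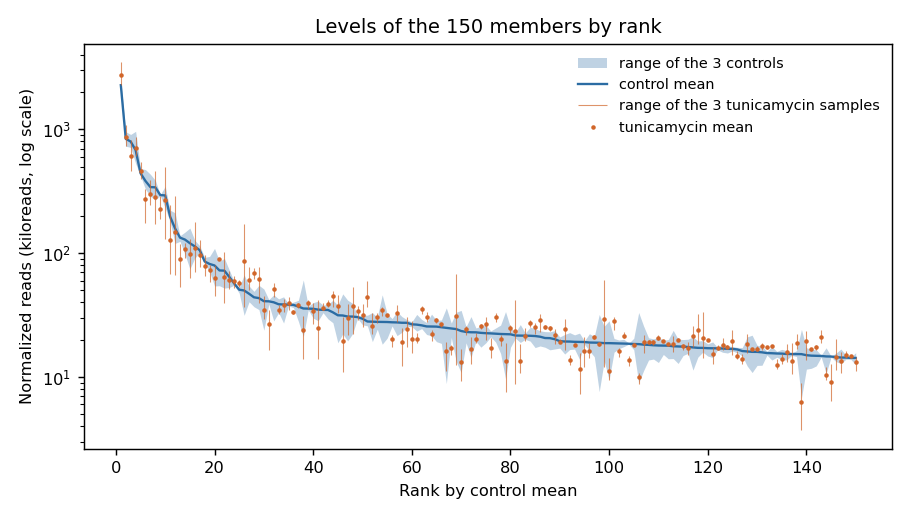
Normalized reads in kiloreads (log scale, y axis) against rank by control mean (x axis) for the 150 genes, with the control mean and range in blue and the tunicamycin mean and range in orange. Levels fall steeply over the first 20 ranks, from 2273 to 79.5 kiloreads in controls, and slowly after that, to 14.3 kiloreads at rank 150.

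Values of single genes are given in kiloreads (1000 normalized reads), in the order controls 1, 2 and 3, then tunicamycin 2, 3 and 4. D is log2 of the tunicamycin mean less log2 of the control mean, each with 1 normalized read added. LOC724199, the highest, was at 2199.7, 2477 and 2142 in controls and 2294, 3473 and 2436 in tunicamycin (means 2273 ± 179 and 2734 ± 643, n = 3 each; D 0.27). Its groups overlap, and tunicamycin 3 is the one sample well above the rest. LOC100579019, at rank 2, was at 956, 730.1 and 829 in controls and 1087, 734 and 783 in tunicamycin (D 0.05), with both groups spread over the same range. LOC724874, at rank 3, was at 715, 909 and 765 against 540.1, 825 and 458 (D -0.39), with tunicamycin 2 and 4 below every control and tunicamycin 3 among them. LOC725725, at rank 4, was at 964, 543 and 531 against 864, 638 and 607 (D 0.05); it was the member of the top 4 in which control 1 stood out, above every other sample.

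LOC726855, at rank 5, was at 483, 424 and 419 in controls and 449, 548 and 395 in tunicamycin (D 0.07). LOC102654405, at rank 6, was at 346, 328 and 473 against 312, 328 and 176 (D -0.49). The groups of LOC102654405 do not overlap, by a narrow margin between control 2 and tunicamycin 3, and tunicamycin 4 is far below the other 5. LOC100577156, at rank 7, was at 433, 287 and 304 against 268, 387 and 245 (D -0.19). LOC726352, at rank 8, was at 269, 365 and 387 against 229, 459 and 172 (D -0.25). In both of these tunicamycin 4 is the lowest sample and tunicamycin 3 the highest treated one, above every control only in LOC726352.

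LOC107964104, at rank 9, is a long non-coding RNA in the RefSeq annotation of the assembly Amel_HAv3.1. It was at 297, 295 and 291 in controls, among the 5 smallest control spreads of the 150 (SD of log2 values 0.01), and at 288, 209 and 188 in tunicamycin (D -0.37). The groups do not overlap, with tunicamycin 2 just under the controls. LOC100577527, at rank 10, was at 299.9, 232 and 346 against 497, 129.9 and 183 (D -0.12). Tunicamycin 2 is its highest sample and tunicamycin 3 and 4 its lowest, so that the group mean stands for no sample.

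Ranks 11 and 12 shared a pattern in which tunicamycin 3 was the highest of all samples and tunicamycin 2 and 4 the lowest. LOC410894 was at 222, 189.9 and 179 against 68.4, 247 and 67.8 (D -0.63), a more than 3-fold range inside the treated group. LOC551524 was at 120.0, 212 and 143 against 89.6, 287 and 67.2 (D -0.10). LOC413575, at rank 13, had controls close together at 124, 138 and 138 and tunicamycin samples below them at 119, 99.3 and 52.9 (D -0.56). The remaining members of the top 20 were LOC726571, LOC410492, LOC551180, LOC100577143, LOC724721, LOC408534 and LOC551327, with control means between 129 and 79.5 kiloreads and D between -0.35 and -0.03; their groups overlap.

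**Figure D3:**
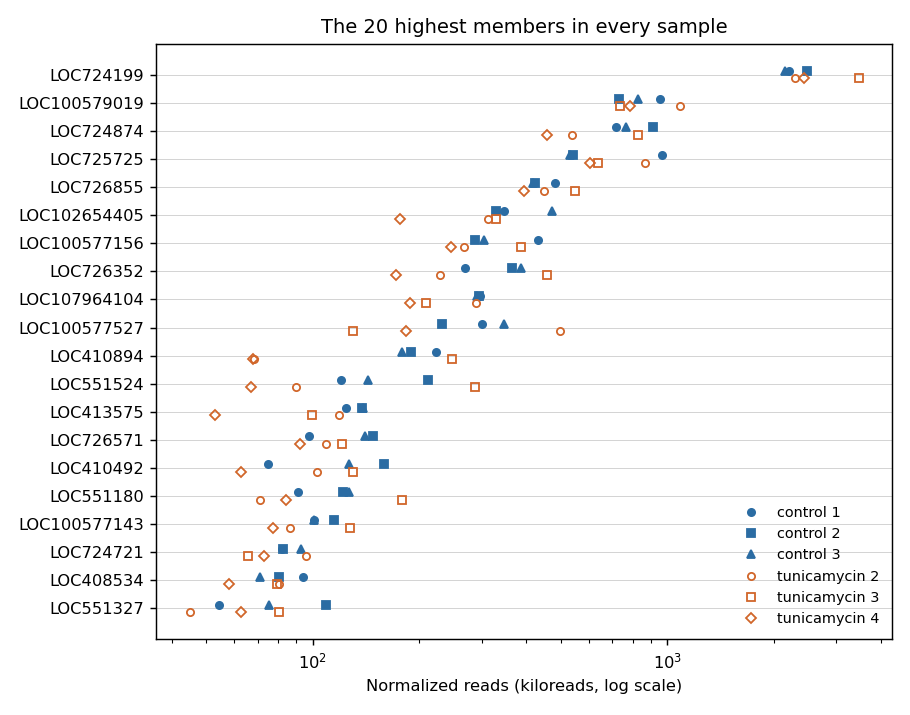
Normalized reads in kiloreads (log scale, x axis) of the 20 genes with the highest control mean (y axis), with filled blue markers for the 3 controls and open orange markers for the 3 tunicamycin samples. Tunicamycin 4 (diamonds) is the lowest of the 6 samples in 13 of the 20 genes.

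Over the top 20 the control mean was above the tunicamycin mean in 16 and below it in 4. Ranking by the control mean favours genes whose controls ran high. The signs and medians of D by rank below are therefore a description. Tunicamycin 4 was below every control in 16 of the 20 and in 41 of the 130 genes at ranks 21 to 150. The share of all genes with this feature was not computed, so nothing is read from these counts. Among those 130 the tunicamycin mean was the higher in 77 and the lower in 53, with a median D of 0.06 against -0.18 in the top 20. Without control 1 the tunicamycin mean was the higher in 71 of the 130 and the lower in 59, with a median D of 0.01, against 5 and 15 and a median of -0.21 in the top 20. The spread in the top 20 was larger among tunicamycin samples (median SD of log2 values 0.40) than among controls (0.23), and at ranks 51 to 150 it was smaller (0.15 against 0.22).

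The deposited tables name these genes by identifier alone. The RefSeq gene table matched 146 of the 150 and gave 144 as protein-coding and 2 as long non-coding RNA, with no product name, so no role is given to any of them here. The second long non-coding RNA was LOC102653599 at rank 44, at 27.4, 41.7 and 30.7 kiloreads in controls and 49.0, 36.7 and 49.6 in tunicamycin. Among all matched genes 8.02% were long non-coding, against 1.37% of the matched members. The 4 without a match were LOC413645, LOC551319, LOC724257 and LOC107964586, at ranks 26, 34, 38 and 106.

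Genes that do carry a symbol show what else ran at this level. At or above the control mean of rank 150 stood 27 of the 303 genes with a symbol, which took between 8.27% and 10.2% of reads in every sample. The highest were the alpha-glucosidases Hbg2 and AGLU2, enzymes that split dietary sugars, at 669 and 668 kiloreads in controls, next below LOC725725 at 679 kiloreads. Others in the range belong to protein synthesis (EF1a-F2, an elongation factor, and the ribosomal protein RpLP1), to energy supply (the adenine nucleotide translocase Ant, the ATP synthase subunit ATP5G2 and arginine kinase, Argk), to folding (Hsc70-4, Hsp90 and the ER chaperone Hsc70-3) and to detoxification or redox control (GstS1, GstD1, Sod1 and catalase, Cat). Hsc70-3 was the one gene of the 27 that passed at an adjusted p under 0.05 in limma, at 68.4, 35.1 and 25.4 kiloreads in controls and 212, 268 and 317 in tunicamycin (log2 fold change 2.73 ± 0.40 SE, adjusted p = 0.0279). Its adjusted p in limma was 0.0100 without control 1 and between 0.0671 and 0.135 without each of the other samples, with a log2 fold change of at least 2.42 throughout. The rule on separated groups was not applied to genes with a symbol. Another 18 genes of this level had been set aside by the rule on separated groups. Together the 195 genes at or above that level took 59.0%, 59.5% and 59.4% of reads in controls and 57.2%, 61.1% and 53.8% in tunicamycin.

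Of the 18 set aside, 7 were higher in tunicamycin and 11 lower. LOC102654271 was the one set apart most upward, at 70.3, 78.1 and 55.7 kiloreads in controls and 235, 336 and 324 in tunicamycin (D 2.13). LOC725250, the most abundant of them, was at 209, 293 and 336 against 156, 129 and 54.7 (D -1.30). LOC408452 was the furthest downward, at 51.1, 38.6 and 36.7 against 15.6, 18.0 and 11.2 (D -1.50). Gains and losses of the 18 nearly balanced in reads: their joint share was 3.49%, 3.58% and 3.63% in controls and 3.87%, 3.54% and 3.89% in tunicamycin.

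At the edges of the choice, the last 3 members by level were LOC412266, LOC411515 and LOC552007, with control means of 14.3, 14.3 and 14.3 kiloreads, and the first 3 left out were LOC409893, LOC552445 and LOC551766, at 14.1, 14.1 and 13.9 kiloreads. The limit on D left LOC100578925 out at 0.76, since its groups did not overlap. It kept 4 genes past 0.75 whose groups overlap. These were LOC413645 (D 0.79), LOC724565 (D -0.82), LOC107964586 (D -0.89) and LOC413264 (D -1.27).

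Between tunicamycin and control, none of the 150 passed at an adjusted p under 0.05 in the limma fit over all genes, where the share of all genes called was 1.13%. At an unadjusted p under 0.05 there were 16 (10.7%, against 15.5% of all genes). The count was also 0 in edgeR (0.939% of all genes) and in limma-voom (1.06% of all genes). In DESeq2 it was 6 (4%, against 5.51% of the 9403 genes to which DESeq2 gave an adjusted p). Since the choice of the 150 removed separated genes of this level, nothing is read from these counts. The groups of 31 of the 150 do not overlap (20.7%), against 21.8% of all genes. Tunicamycin was above control in 17 (11.3%, against 11.0% of all genes) and below in 14 (9.33%, against 10.7% of all genes). Without control 1 there were 60 (40%, against 38.6% of all genes). Of these, tunicamycin was above in 24 (16%, against 19.6% of all genes) and below in 36 (24%, against 19.0% of all genes). Without tunicamycin 3 there were 63 (42%, against 38.4% of all genes) and without tunicamycin 4 there were 37 (24.7%, against 26.5% of all genes). In each of these, 2 samples are set against 3. The rule took separated genes with a D of at least 0.75 in size out of the 150, but the shares of all genes still hold them. Nothing is therefore read from the shares of separated groups either.

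**Figure D4:**
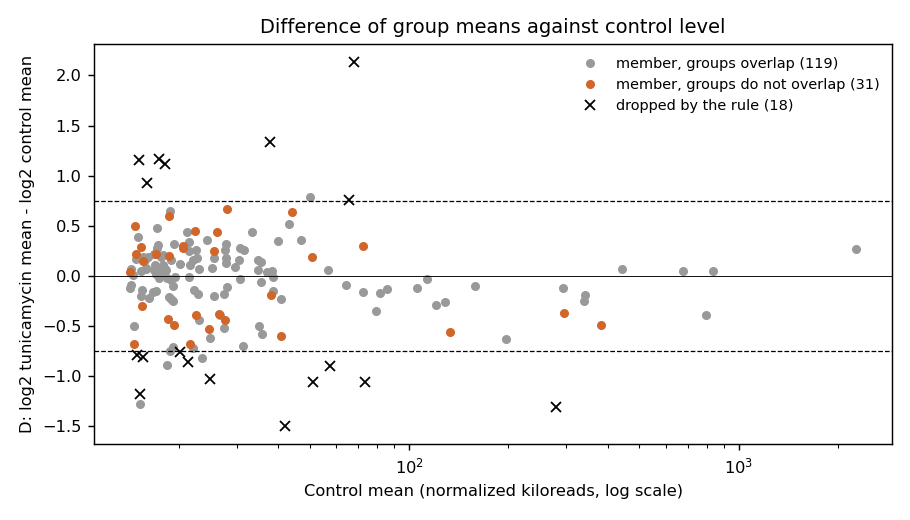
D (log2 tunicamycin mean less log2 control mean, y axis) against control mean in kiloreads (log scale, x axis) for the 150 genes and, as crosses, the 18 of the same level that the rule set aside. Dashed lines mark a D of 0.75 in either direction; orange points are the 31 whose groups do not overlap, and the members lie between -1.27 and 0.79.

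D had a median of 0.05 over the 150 with quartiles of -0.21 and 0.19, against a median of -0.01 over all genes. The limma log2 fold change had a median of 0.04, and of -0.04 without control 1, against 0.00 in both over all genes. The sign of the median thus rests on control 1, and TMM scaling gave 0.03. The 17 genes with tunicamycin above control had D between 0.04 and 0.67, and the 14 below between -0.68 and -0.19.

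The largest positive D with groups apart was that of LOC408388, at 26.8, 31.5 and 25.8 kiloreads in controls and 37.5, 36.9 and 59.2 in tunicamycin (D 0.67). LOC408421 was at 36.9, 46.0 and 49.1 against 62.3, 75.3 and 68.4 (D 0.64), with a gap between the groups. LOC410085 was at 15.9, 20.4 and 19.8 against 30.3, 23.9 and 30.6 (D 0.60). LOC413645, which had the largest D of all at 0.79, owed it to 1 sample: it was at 51.6, 66.8 and 31.5 in controls and 36.9, 171 and 51.9 in tunicamycin. LOC409626 was of the same kind, at 25.7, 17.2 and 13.5 against 16.1, 60.2 and 12.0 (D 0.65), with tunicamycin 3 above and the other treated samples within or below the control range.

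The largest negative D was that of LOC413264, at 6.79, 14.9 and 24.2 kiloreads in controls and 6.37, 8.91 and 3.70 in tunicamycin (D -1.27). Its controls spread over more than 3-fold and its groups overlap at control 1. LOC107964586 was at 33.2, 8.97 and 13.1 against 10.2, 8.82 and 10.8 (D -0.89), so that its high control mean comes from control 1 alone. LOC724565 was at 25.2, 34.5 and 10.8 against 9.21, 16.9 and 13.8 (D -0.82). LOC726934 (9.53, 18.3 and 28.4 against 14.2, 9.87 and 9.41) and LOC552073 (9.66, 23.1 and 33.7 against 18.8, 13.9 and 7.60) also had controls spread over about the whole range of the 6 samples.

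Other genes had very even controls. LOC100577875 was at 18.7, 18.4 and 18.5 kiloreads in controls and 14.9, 14.3 and 12.2 in tunicamycin (D -0.43), with no overlap and a control SD of 0.01 on the log2 scale. LOC102654691 was at 15.0, 14.5 and 14.9 against 18.8, 19.9 and 24.0 (D 0.50). LOC410539 was at 14.7, 14.7 and 14.5 against 8.35, 12.7 and 6.41 (D -0.68). In all 3 the controls were nearly identical and the treated samples lay apart from them on 1 side. These are 3 of the 5 genes with the smallest control spread, and the others, LOC107964104 and LOC102655329, had tunicamycin values below and on either side of the controls. Choosing genes for a small control spread narrows the control range, which makes treated values outside it more likely. Nothing is therefore read from the separation of these genes.

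The spread over replicates was about that of the midgut as a whole. The SD of log2 values over the 3 controls had a median of 0.22 in the 150, 0.21 in the next 150 genes by the same rule and 0.22 over all genes, and in tunicamycin it was 0.20, 0.18 and 0.21. In 20 of the 150 the highest control was at least 2 times the lowest (13.3%, against 16.3% of all genes). The widest control spreads were those of LOC724211, at 8.84, 29.8 and 36.1 kiloreads, and LOC409963, at 7.61, 32.0 and 17.1, both with control 1 far below. In tunicamycin LOC409963 was at 18.8, 18.5 and 17.7, an SD of 0.04 on the log2 scale.

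Over all 6 samples, the highest value was at most 1.5 times the lowest in 49 of the 150, at most 1.2 times in 6 and more than 3 times in 17, with a median of 1.63. LOC411515 was the most even at 14.4, 14.4 and 13.9 kiloreads in controls and 14.5, 14.8 and 14.7 in tunicamycin, a range of 1.06-fold. LOC409589 followed at 16.5, 17.2 and 17.3 against 18.1, 16.5 and 17.2. Both kept within 1.10-fold over the 6 samples.

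Which sample was lowest was unevenly spread among the 150. Control 1 was the lowest of the 6 samples in 54 (36.0%, against 23.3% of all genes) and tunicamycin 4 in 46 (30.7%, against 18.0%). The other 4 samples were lowest in 11 to 16 genes each. In the next 150 genes by the same rule control 1 was lowest in 71 and tunicamycin 4 in 31, so the low values of control 1 were not particular to the highest 150. Without control 1, tunicamycin 4 was the lowest in 56 of the 150 (37.3%, against 28.7% of the next 150 and 21.8% of all genes).

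The 2 subsets held different parts of the load. The 54 genes lowest in control 1 had a median rank of 84.5 and took 5.54% of control reads, and none was in the top 20. Rank and control share both use control 1, so choosing genes low in control 1 lowers them. Nothing is read from their difference from the other subset. Their median deviation from the mean of the 6 samples was -0.43 in control 1 and between 0.06 and 0.14 in the others (log2). LOC409675 at rank 21, the highest of them, was at 54.5, 85.9 and 77.1 kiloreads in controls and 89.2, 91.2 and 88.2 in tunicamycin. LOC551259 was at 28.4, 46.0 and 45.9 against 51.4, 44.7 and 57.4. For such genes the control mean is lowered by control 1, and D was above 0 in 46 of the 54.

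The 46 genes lowest in tunicamycin 4 had a median rank of 53 and took 18.4% of control reads, and 14.6% of tunicamycin reads. Their median deviation was -0.49 in tunicamycin 4, -0.10 in tunicamycin 2 and between 0.07 and 0.20 in the rest, and D was below 0 in all but 7. Genes with a symbol at this level split in the same 2 ways. Over all genes, control 1 was lowest in 23.3% and tunicamycin 4 in 18.0%. Of the 27, control 1 was the lowest sample in 12. Tunicamycin 4 was the lowest in 8, among them the highest 2 of the 27, Hbg2, at 513, 609 and 886 kiloreads against 667, 695 and 323, and AGLU2, at 589, 710.0 and 705 against 494, 607 and 378. The genes were grouped this way after their values were seen. In both subsets the low deviation of the grouping sample follows from the grouping. The grouping also pulls D to the side seen, so these values are a description.

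**Figure D5:**
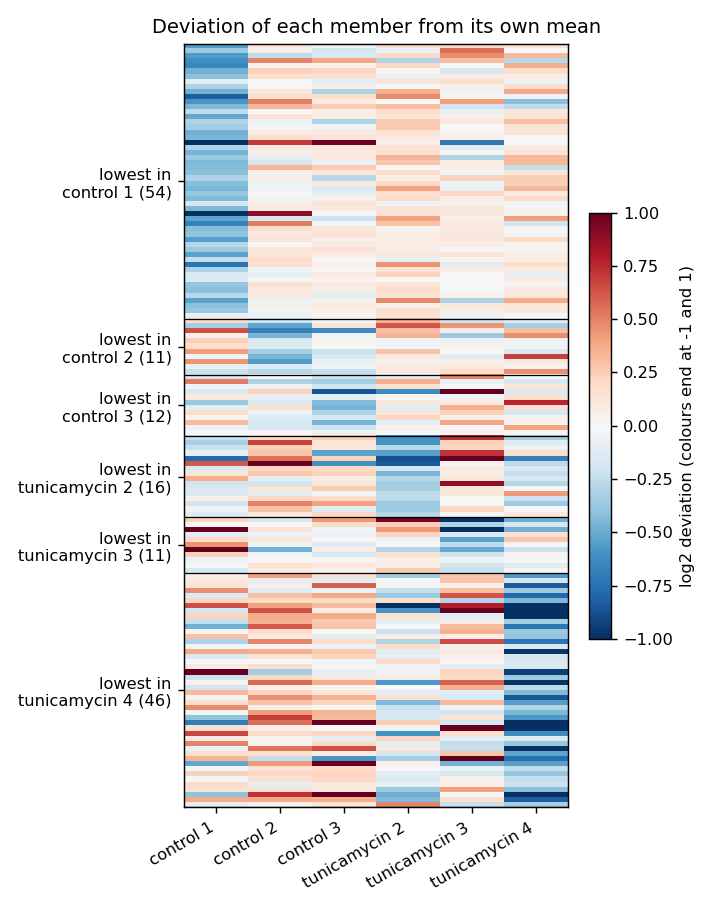
Log2 deviation of each of the 150 genes (rows) from its own mean over the 6 samples (columns), with rows grouped by the sample in which the gene is lowest and ordered by rank within a group. The 54 genes lowest in control 1 and the 46 lowest in tunicamycin 4 make up the 2 large blocks.

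The variation of the 150 genes across samples was described by principal components. The first principal component, with 38.1% of the variance of the log2 deviations, set tunicamycin 2 and 4 (0.44 and 0.69) apart from the other 4 samples (-0.37 to -0.22), among which was tunicamycin 3. The second, with 26.8%, set control 1 (0.86) apart from controls 2 and 3 (-0.38 and -0.32), with the treated samples near 0. The third, with 23.5%, set tunicamycin 3 (0.74) against control 3 (-0.50). None of these 3 components divided the 3 treated from the 3 control samples, and genes that separate them strongly had been removed by the choice.

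The 150 genes were mostly scattered in the gene order of Amel_HAv3.1. Among them were 6 pairs of direct neighbours. LOC413575 at rank 13 stood next to LOC413576 at rank 94, which was at 13.9, 21.0 and 22.6 kiloreads against 15.5, 12.3 and 7.30, and tunicamycin 4 was the lowest sample of both. LOC551684 and LOC551651, at ranks 24 and 35, ran in parallel in every sample, at 56.7, 58.6 and 55.2 against 65.7, 59.4 and 52.1 for the first and 38.6, 39.0 and 37.5 against 44.6, 39.5 and 35.0 for the second. The spans of LOC551684 and LOC551651 overlap, as do those of LOC408474 with LOC410539 and of LOC409729 with LOC409728. Another gene's span overlapped that of 54 of the 146 matched members (37.0%, against 40.7% of all matched genes). Whether strand was used in counting is not stated by the labels, so reads of overlapping genes may be shared, and the same holds for near-identical gene copies.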

How the data were processed

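Poly(A)-selected RNA of 6 honey bee midgut samples was sequenced on an Illumina HiSeq instrument, per the labels' protocols. Tools listed in the submitters' processing notes are DESeq2, STAR, Subread and Trimmomatic 0.36, without their roles or a genome build. The authors deposited 3 tables of normalized signal. Within a sample every deposited value is a whole number of equal steps (tolerance 0.001 of a step), as counts scaled by 1 factor per sample would be, and the reads so recovered entered the count tests.

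The 150 genes and the gene lists were chosen with earlier results of these data known. The main fit was limma 3.58.1 with a variance trend, in R 4.3.3, on log2(value + 1) of 10013 genes with group as its term and Benjamini-Hochberg adjustment. A filter on a mean of at least 1 removed 0 genes. Alternatives on recovered reads were edgeR 4.0.16, DESeq2 1.42.0 and limma-voom. The fits were tested on simulated data. Named genes were the 20 highest, the 5 largest positive and negative D, the 5 largest and smallest control spreads and the genes at the edge of rank 150. Parts of the rule that need protein lengths or sequences were not used. Genes named outside it (the genes set aside, the long non-coding RNA at rank 44, unmatched genes, neighbours, Hsc70-3, LOC409675, LOC551259, LOC409589 and those in the closing section) were chosen after their values were seen.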

Additional observations from a re-analysis of the deposited data

How the results depend on the processing

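Over all genes limma called 113, and the count stayed within 1.5 times of that in 6 alternatives (0.1 as pseudocount, no filter or one at a mean of 50, edgeR, limma-voom and TMM scaling). DESeq2 called 518. With 1 sample left out the count ranged from 20 to 202: it was 202 without control 1, 23 without control 2, 20 without control 3, 57 without tunicamycin 2 and 32 without tunicamycin 4. Among the 150 genes the count was 0, and 0 to 1 with a sample left out. The 1, without control 1, was LOC725718 (adjusted p = 0.0473), and DESeq2 called 6. The replicate block by deposited table called 44 genes and that by shared number 4, and 0 of the 150 in both. Deviations of samples in one table correlated at 0.05, 0.15 and 0.05, and those sharing a number at -0.12 and -0.10, so the numbers were not taken to pair the samples. The deposited tables hold control 1 with tunicamycin 2, control 2 with tunicamycin 3 and control 3 with tunicamycin 4. The labels name these tables but state no block, so the main fit used none. The share of reads in controls was 30.3% without the 10 highest of all genes (those with a symbol included, and removed from the total too), 48.8% without the step that set genes aside, 42.9% for the top 100, 49.0% for the top 200 and 40.7% without the highest gene. In tunicamycin it was 27.8%, 41.3% and 37.9% without those 10, for the top 100 and without the highest gene. The last was chosen after seeing the data, as were the counts of lowest samples, of separated groups and of the sign of D with a sample left out. Other versions of the rule kept between 132 (ranked on tunicamycin) and 145 of the 150. Ranking per coding length was not run. Of 585 refits of 39 named genes, 1 moved by more than the replicate spread, 19 changed the sign of a fold change that had not passed and 4 gave an adjusted p under 0.05. LOC413645 went from a log2 fold change of 0.53 to -0.12 without tunicamycin 3. The cause of these differences was not tested.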

Other observations

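In 7 of the 150 genes the SD of log2 values over the tunicamycin samples was at least 1, against 2 over the controls. Tunicamycin 3 was the highest of the 6 samples in 6 of these 7, and tunicamycin 2 in the other, LOC100577527. LOC409341 at rank 69 was at 13.3, 33.3 and 26.5 kiloreads (1000 normalized reads) in controls 1, 2 and 3 and at 12.4, 67.2 and 14.2 in tunicamycin samples 2, 3 and 4. LOC726672 at rank 81 had even controls, at 22.9, 21.4 and 20.6, and treated samples on both sides of them, at 19.7, 41.5 and 8.84. Outside these 7, control 1 was the single high sample of some genes: LOC724257 was at 60.8, 21.1 and 25.3 against 26.4, 31.3 and 14.1, and LOC100578144 at 46.9, 25.0 and 22.3 against 30.7, 11.0 and 16.4. LOC725718 at rank 54 was at 46.1, 18.4 and 19.0 against 36.7, 30.9 and 36.4, so that its groups overlap at control 1 and lie apart without it.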
